A study of Mus musculus with 50 samples.

Results

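Keratins and epithelial junction genes were followed across mouse airway samples in which interleukin-13 (IL-13) acted with or without the transcription factor Stat6. The members were all genes whose single annotated symbol on the arrays was a numbered keratin, claudin, desmoglein, desmocollin or plakophilin, a tight junction protein of the Tjp series, or 1 of Dsp, Ocln, Cdh1, Jup, Itgb4, Itgb6 and Trp63. The rule used names alone and no measured value. It found 77 of 13409 genes on the larger platform and 77 of 13509 on the smaller one, namely 39 keratins, 22 claudins, 9 desmosome genes, 3 tight junction genes (Ocln, Tjp1, Tjp3), 2 integrins, the adherens junction gene Cdh1 and the transcription factor Trp63. Dsp had no spot among them. Many of the keratins are known from hair and skin and Cldn5 from endothelium, so the rule did not select lung epithelium alone.

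Keratins are the intermediate filament proteins of epithelial cells and assemble as pairs of a type I and a type II chain, with Krt8 and Krt18 paired in simple epithelia and Krt5 and Krt14 in basal cells. Claudins are membrane proteins of the tight junction, some of which seal the space between cells while others, Cldn2 among them, form pores for small ions and water. Desmosomes, made of desmogleins, desmocollins, plakoglobin (Jup) and plakophilins, anchor keratin filaments at cell contacts, and the integrin Itgb4 anchors them to the basement membrane in hemidesmosomes.

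The study, titled for the direct effects of IL-13 on airway epithelium, hybridised 50 two-channel arrays, 5 in each of 10 groups, with a reference in the first channel and the sample in the second. RNA came from tracheal perfusate, amplified in 1 round, or from whole lung without amplification. Each tissue had 5 groups, labelled IL-13 Stat6+/-, IL-13 Stat6-/-, IL-13 Stat6-/- Epi+, ovalbumin (OVA) and phosphate-buffered saline (PBS). The labels give no genotype for OVA and PBS samples, no age, and no animal for an array, so p-values reflect spread among these arrays that may be technical. The mark Epi+ is known from mice whose airway epithelium regains Stat6 through a transgene, although the labels do not explain it. The labels of 3 perfusate arrays (Epi+ 16, PBS 22 and OVA 28) do not state the amplification.

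Values are log2 ratios to the reference after each array was centred on its median, and the ratio was taken as sample over reference, the likely direction because Il13 was higher by 2.72 ± 0.21 (SE) in perfusate of IL-13 Stat6-/- than of PBS. Arrays held 15693 to 18655 spots with a value. The Stat6 spot did not check the genotypes, with a difference between IL-13 Stat6+/- and Stat6-/- of -0.10 ± 0.14 in perfusate (adjusted p = 0.848) and -0.19 ± 0.28 in lung (adjusted p = 0.763), and where the deletion lies relative to it is not stated. Arrays 10, 11 and 12 of perfusate IL-13 Stat6-/- and arrays 1 and 2 of lung IL-13 Stat6-/- stood apart by the Y-linked gene Eif2s3y, at -1.46 to -0.95 against 0.22 and 0.45, and at -3.34 and -3.16 against -1.21 to -0.10. Perfusate Epi+ array 16 was also low, at -1.07. Members called against Stat6-/- are therefore given with and without those 5 arrays. Lung OVA array 5 was low as well, at -2.75 against -0.18 to 1.03 in the other OVA arrays, with the highest Xist of its group (2.94).

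Differences below are log2 differences ± SE of the fit, a gene is called at a Benjamini-Hochberg adjusted p under 0.05 over all features, and each perfusate fit had the reference preparation as a block, since each of the 5 preparations carried 1 array per group. Lung IL-13 arrays used reference pool 3 or 4, likewise a block, and lung OVA and PBS arrays used pool 2 alone. Perfusate, whole lung IL-13 and whole lung OVA and PBS values rest on different references, so a level in one is not comparable with a level in another.

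The start regions of Cldn2, Cldn22 and Krt79 are shown here because the results below turn on these genes, the members whose perfusate groups did not overlap in a called comparison. Each window runs from 250 bases before to 50 bases after the RefSeq start in GRCm38.p6, 5′ to 3′ on the gene's strand. They are chrX:139800558-139800857 on the plus strand for Cldn2, chr8:47824232-47824531 on the plus strand for Cldn22 and chr15:101940275-101940574 on the minus strand for Krt79. Capitals mark TATAAA.
Cldn2: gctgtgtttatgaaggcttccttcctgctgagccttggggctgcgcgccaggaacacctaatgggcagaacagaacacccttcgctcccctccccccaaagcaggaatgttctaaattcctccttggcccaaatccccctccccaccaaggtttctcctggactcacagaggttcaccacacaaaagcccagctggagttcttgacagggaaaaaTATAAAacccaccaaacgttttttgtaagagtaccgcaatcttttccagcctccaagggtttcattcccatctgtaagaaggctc
Cldn22: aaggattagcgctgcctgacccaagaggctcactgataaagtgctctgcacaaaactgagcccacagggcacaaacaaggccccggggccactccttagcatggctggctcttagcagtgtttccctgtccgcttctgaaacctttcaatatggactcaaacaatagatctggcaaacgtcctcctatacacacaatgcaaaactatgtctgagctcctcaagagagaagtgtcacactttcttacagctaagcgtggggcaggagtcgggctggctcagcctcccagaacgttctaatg
Krt79: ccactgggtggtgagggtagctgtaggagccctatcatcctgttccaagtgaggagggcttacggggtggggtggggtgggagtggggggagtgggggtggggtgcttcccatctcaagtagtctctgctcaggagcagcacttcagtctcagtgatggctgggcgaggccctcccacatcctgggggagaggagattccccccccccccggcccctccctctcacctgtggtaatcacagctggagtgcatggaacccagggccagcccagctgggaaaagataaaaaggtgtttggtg
The Cldn2 window held TATAAA with its first base at -35 from the start. The palindromes bound by Stat factors, TTC and GAA parted by 4 bases (preferred by Stat6) or by 3 bases, read alike on both strands, and none of the 3 windows held either. In RefSeq start regions of this length, 6.95% of 32851 held the palindrome with 4 bases between, 8.3% that with 3 and 13.6% TATAAA on either strand. Among 59 such regions of 49 members the numbers were 5, 6 and 17. A match or its lack describes these letters only.

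Cldn2 (chromosome X, 139800808 to 139811386) was called in 5 comparisons, more than any other member. In perfusate it read -0.63, -0.73, 0.39, -0.77 and 0.34 in IL-13 Stat6-/-, and 0.32, -0.005, -0.48 and -0.037 in the 4 PBS arrays with a value. It read 1.44, 0.53, 1.72, 1.10 and 2.31 in IL-13 Stat6+/- and 1.35, 0.93, 2.07, 0.92 and 1.64 in IL-13 Stat6-/- Epi+. All 10 arrays of the latter 2 groups lay above all Stat6-/- and PBS arrays. The group means were -0.28 ± 0.59 (SD, n = 5), -0.049 ± 0.33 (SD, n = 4), 1.42 ± 0.67 (SD, n = 5) and 1.38 ± 0.49 (SD, n = 5). Cldn2 was higher in Stat6+/- than in Stat6-/- by 1.70 ± 0.23 (adjusted p = 0.000257), a 3.25-fold difference, and higher in Epi+ than in Stat6-/- by 1.66 ± 0.23 (adjusted p = 0.00132). Against PBS the differences were 1.36 ± 0.24 (adjusted p = 0.00213) and 1.32 ± 0.24 (adjusted p = 0.0067). In all 5 reference preparations Stat6+/- exceeded Stat6-/-, by 1.30 to 2.07, and Epi+ exceeded Stat6-/-, by 1.30 to 1.97.

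Stat6+/- and Epi+ perfusates differed in Cldn2 by 0.040 ± 0.23, with a 95% interval of -0.43 to 0.51 (adjusted p = 0.992). Stat6-/- and PBS differed by -0.34 ± 0.24 (adjusted p = 0.454). OVA perfusates read 1.35, 0.36, 1.21, 1.35 and 1.38, all above the PBS arrays, but the difference of 1.07 ± 0.24 missed the threshold (adjusted p = 0.0802). Array 29 was the low one of the 5 OVA arrays. Without the 3 Stat6-/- arrays that stood apart, Cldn2 remained higher in Stat6+/- by 1.65 (adjusted p = 0.0218, and 0.000396 to 0.0416 over the 5 settings tried). The difference for Epi+ was then 1.615 and missed the threshold (adjusted p = 0.0579, and 0.00236 to 0.12 over the 5 settings tried). No single array ended any of the 4 Cldn2 calls in perfusate. Fits of the 2 groups alone kept the call of Stat6+/- against Stat6-/- and lost the other 3. The call of Epi+ against PBS was also lost with the values as deposited and without the reference block. Its adjusted p ran from 0.0102 to 0.164 over the 4 settings tried.

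In whole lung Cldn2 read 0.73, -0.096, -0.48, -0.38 and 1.16 in IL-13 Stat6-/-, 0.95, 0.43, 3.27, 0.32 and 5.11 in Epi+ and 2.22, 3.92, 1.11, 3.72 and 0.98 in Stat6+/-. The Stat6+/- arrays lay high, between 0.98 and 3.92, but their lowest fell under the highest Stat6-/- array, and 2 Epi+ arrays read above 3 while the other 3 did not reach 1. Stat6+/- exceeded Stat6-/- by 2.20 ± 0.56 (adjusted p = 0.0403), a 4.6-fold difference, and by 1.33 and 2.78 within the 2 reference pools. This call was kept in 2 of 10 omissions of 1 array and was lost without the Stat6-/- arrays that stood apart (2.45, adjusted p = 0.0873, and 0.0204 to 0.258 over the 7 settings tried). Epi+ exceeded Stat6-/- by 2.27 ± 0.57, which was not called (adjusted p = 0.578). Lung OVA read 0.57, -1.66, 0.015, -0.33 and 2.23 and PBS read -0.017, -0.23, 1.17, -0.40 and -1.01, overlapping ranges with a difference of 0.26 ± 0.65 (adjusted p = 0.872).

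**Figure D1:**
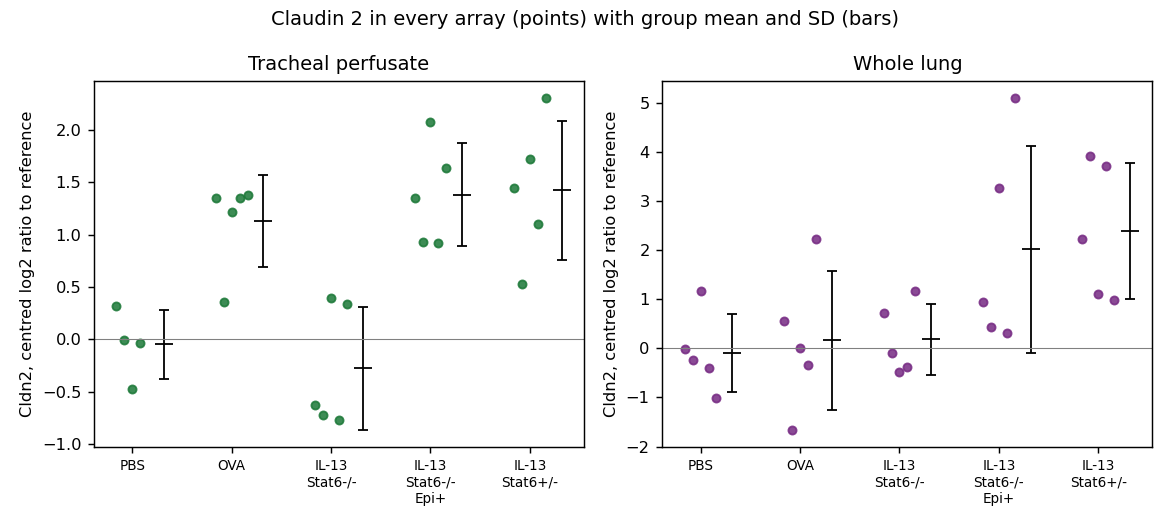
Centred log2 ratio of Cldn2 to its reference in every array (points), by group, in tracheal perfusate and whole lung, with the group mean and SD. In perfusate the IL-13 Stat6+/- and Epi+ arrays all lie above the IL-13 Stat6-/- and PBS arrays, while in whole lung the groups overlap.

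Cldn22 (chromosome 8, 47824482 to 47825475), a claudin whose function is little described, followed another pattern. In perfusate it read 0.19, -0.094, -0.28, 0.40 and -0.11 in PBS, 0.92, 0.96, 1.52, 0.90 and 1.03 in OVA and 1.09, 1.15, 0.47, 1.33 and 0.76 in IL-13 Stat6-/-. It read 1.07, 1.26, 1.39, 1.38 and 1.69 in Epi+ and 1.74, 1.60, 1.02, 1.36 and 0.49 in Stat6+/-. Every array of the other 4 groups lay above every PBS array. The increase over PBS was 1.22 ± 0.22 in Stat6+/- (adjusted p = 0.00213) and 1.34 ± 0.22 in Epi+ (adjusted p = 0.00289), calls that fits of the 2 groups alone lost (adjusted p = 0.078 and 0.115). The differences of 1.04 ± 0.22 in OVA (adjusted p = 0.0555) and 0.94 ± 0.22 in Stat6-/- (adjusted p = 0.0605) missed the threshold. Among the IL-13 groups, Stat6+/- and Stat6-/- differed by 0.28 ± 0.22, with a 95% interval of -0.18 to 0.75 (adjusted p = 0.683).

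In whole lung Cldn22 read -1.35, -0.35, -1.20 and -1.60 in 4 PBS arrays and 1.51, 1.95, 1.74 and 3.34 in 4 OVA arrays, with no value in PBS 1 and OVA 6. The 2 groups did not overlap, and the difference of 3.26 ± 0.46 (9.56-fold, adjusted p = 0.0134) was the widest of any member in any comparison. OVA array 5, noted above for its sex-linked genes, held the highest value, and without it the difference was 2.85 (adjusted p = 0.0133). The call held in all 10 omissions of 1 array, although omitting PBS 1 or OVA 6 left the Cldn22 values unchanged. It was lost with the values as deposited (2.82, adjusted p = 0.0545, and 0.0144 to 0.177 over the 3 settings tried). In lung IL-13 arrays Cldn22 read -0.49, -0.067, 0.44, -4.25 and -0.26 in Stat6-/-, 1.29, 2.92, 0.96, 0.54 and -0.44 in Epi+ and 0.76, -1.25, 0.73, -1.18 and -0.50 in Stat6+/-. These ranges overlapped and no difference among them was called.

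**Figure D2:**
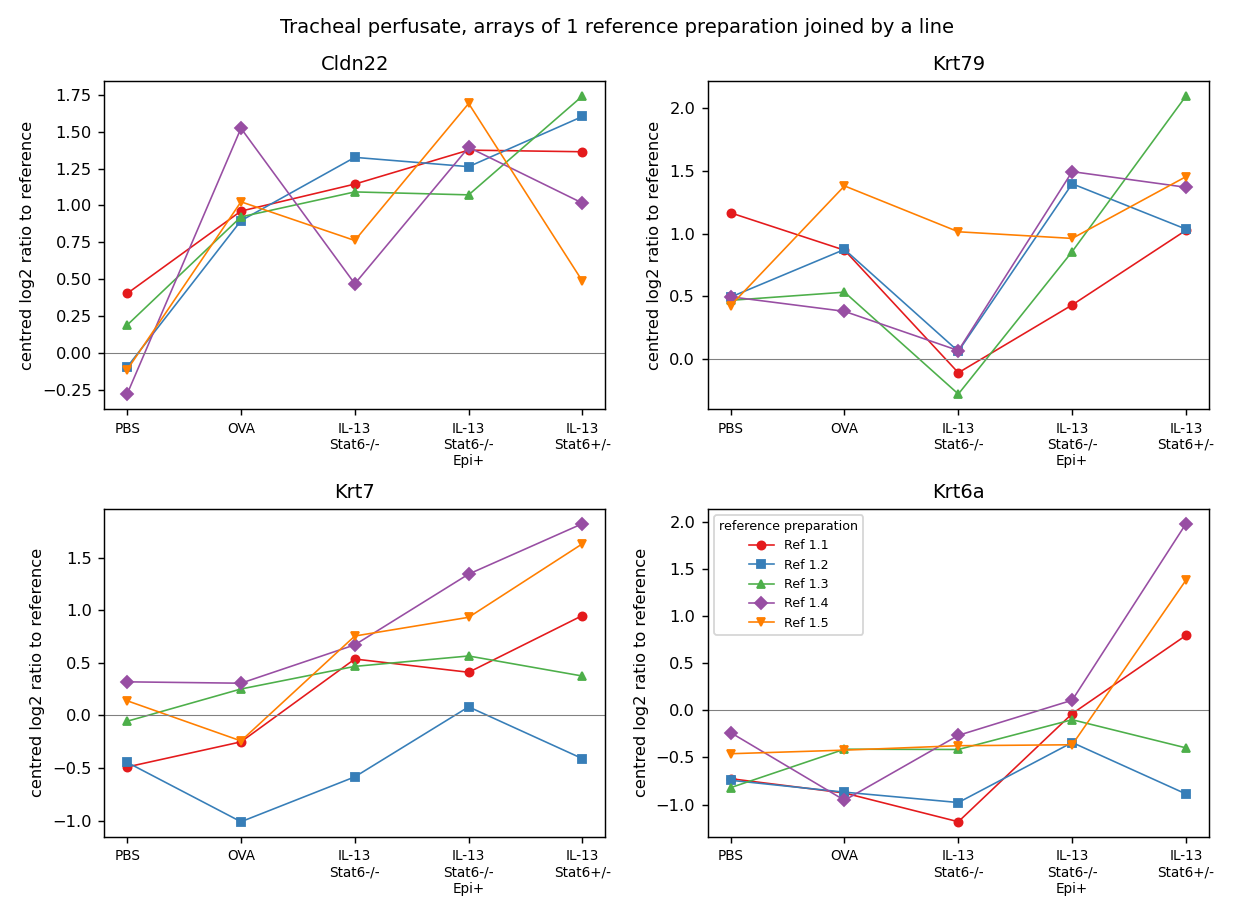
Centred log2 ratios of Cldn22, Krt79, Krt7 and Krt6a in the 25 tracheal perfusate arrays by group, with the arrays hybridised against 1 reference preparation joined by a line. Each line is lowest in PBS for Cldn22, and the Stat6+/- arrays of Ref 1.4, 1.5 and 1.1 are the high ones for Krt7 and Krt6a.

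Cldn4, a sealing claudin, and Cldn15, a pore-forming claudin best known from the intestine, moved in opposite directions in perfusate of IL-13 Stat6+/- relative to PBS. Cldn4 read 0.061, 0.018, 0.18, 0.58 and -0.17 in PBS and 0.46, 0.71, 1.21, 1.09 and 0.89 in Stat6+/-, ranges that overlapped slightly. The increase was 0.74 ± 0.20 (adjusted p = 0.0286), and Stat6+/- exceeded PBS within all 5 preparations. Cldn4 also read 1.19, 1.05, 0.27, 0.76 and 0.49 in Stat6-/-, and the 2 IL-13 genotypes differed by 0.12 ± 0.20 (adjusted p = 0.891). Cldn15 read 0.40, 0.83, 1.25, -0.58 and 0.40 in PBS and -3.05, -0.81, -1.19, -1.03 and 0.002 in Stat6+/-. The highest Stat6+/- array lay above the lowest PBS array, and Stat6+/- array 4 was far lower than the other 4. The difference of -1.67 ± 0.50 (adjusted p = 0.0482) had the same sign within all 5 preparations. The Cldn4 call was kept in 3 of 10 omissions of 1 array and the Cldn15 call in 2 of 10. With the values as deposited both were lost (adjusted p = 0.179 and 0.135, with 0.0138 to 0.179 over the 5 settings tried for Cldn4 and 0.034 to 0.163 over the 5 settings tried for Cldn15).

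Cldn15 was also called in whole lung, in another comparison. It read 0.42, 0.26, 0.43, 0.25 and 0.65 in IL-13 Stat6-/- and -0.38, 0.18, -1.02, -0.62 and -1.76 in Stat6+/-, without overlap. The difference was -1.12 ± 0.30 (adjusted p = 0.0487), and it was -1.73 and -0.72 within the 2 reference pools. It was kept in 1 of 10 omissions and lost without the Stat6-/- arrays that stood apart (-1.13, adjusted p = 0.181, and 0.0256 to 0.305 over the 7 settings tried). The same comparison in perfusate gave -0.70 ± 0.50 (adjusted p = 0.641), with -1.53 to 1.38 over the 5 preparations. Other claudins came close in the same comparison. Cldn8 differed by -0.90 ± 0.24 (adjusted p = 0.0508) with no overlap, and Cldn23 by -1.24 ± 0.33 (adjusted p = 0.0557). Without the arrays that stood apart these were -1.01 (adjusted p = 0.125) and -1.06 (adjusted p = 0.253).

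Cldn10, a pore-forming claudin found in club cells of the mouse airway, differed between the tissues in its contrast of IL-13 Stat6+/- with IL-13 Stat6-/-. In whole lung it read 0.32, 0.022, 0.23, -0.024 and 0.38 in IL-13 Stat6-/- and 0.74, 1.57, 1.06, 1.09 and 0.42 in Stat6+/-. In perfusate it read 0.033, 0.43, 0.26, 0.66 and 0.064 in Stat6-/- and -0.17, 0.59, -0.020, 0.30 and -0.28 in Stat6+/-. Every lung Stat6+/- array lay above every lung Stat6-/- array, while the perfusate groups overlapped. The difference between Stat6+/- and Stat6-/- was -0.21 in perfusate and 0.79 in lung, and the difference between these was -0.998 ± 0.28 (adjusted p = 0.0338). The value is a mean of 2 spots of different accessions. In lung the first spot averaged 0.41 in Stat6-/- and 1.11 in Stat6+/-, and the second -0.036 and 0.84. The call was kept in 10 of 20 omissions of 1 array and lost without the 5 arrays that stood apart (-1.03, adjusted p = 0.24, and 0.024 to 0.515 over the 5 settings tried). Of 3 club cell markers, 1 fell and 0 rose between lung Stat6+/- and Stat6-/-, beside 1.71% and 3.3% of all features. Their mean level ran from -1.80 to 0.645 over Stat6+/- arrays and from -0.145 to 0.668 over Stat6-/- arrays. For the tissue difference, 1 of them was called higher in perfusate relative to lung (1.32% of all features) and 0 lower. Their part in the Cldn10 values was not tested.

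The remaining 17 claudins were not called in any comparison. Cldn18, a claudin of alveolar epithelium, differed between OVA and PBS by 0.73 ± 0.20 in perfusate (adjusted p = 0.186) and by -1.01 ± 0.33 in lung (adjusted p = 0.167). Its 2 spots correlated at -0.168 over 36 arrays of the platform used for perfusate and at 0.699 over 8 arrays of that used for lung OVA and PBS. Cldn5, the endothelial claudin, differed by -1.15 ± 0.38 between lung OVA and PBS (adjusted p = 0.17). Cldn13 gave the lowest estimates against PBS in the 3 IL-13 perfusate groups, down to -2.22 ± 0.91 in Epi+ (adjusted p = 0.191). Cldn1, Cldn3 and Cldn7, which help seal the barrier, did not reach an unadjusted p under 0.05 in any comparison.

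Among the keratins, Krt79, a type II keratin known from hair follicle ducts in mouse skin, and Krt6a, a type II keratin induced in injured or hyperproliferative epithelium, were higher in perfusate of IL-13 Stat6+/- than of Stat6-/-. Krt79 (chromosome 15, 101929332 to 101940324) read -0.28, -0.11, 0.067, 0.061 and 1.02 in Stat6-/- and 2.10, 1.04, 1.37, 1.03 and 1.46 in Stat6+/-. The lowest Stat6+/- array stood just above the highest Stat6-/- array, which was array 14. The difference was 1.25 ± 0.27 (adjusted p = 0.0121), 2.37-fold, and Stat6+/- was higher within all 5 preparations, by 0.44 to 2.38. Krt79 read 0.86, 1.40, 1.50, 0.43 and 0.96 in Epi+ and 0.47, 0.49, 0.50, 1.17 and 0.43 in PBS, with means between those of the first 2 groups. The Epi+ difference from Stat6-/- of 0.88 ± 0.27 was not called (adjusted p = 0.237), nor was the Stat6+/- difference from PBS of 0.79 ± 0.27 (adjusted p = 0.0864). In lung, Stat6+/- and Stat6-/- differed by -0.072 ± 0.30, and the tissue difference of 1.32 ± 0.41 had an adjusted p of 0.0595. No single array ended the perfusate call, but without the 3 arrays that stood apart the value was 0.90 (adjusted p = 0.38, and 0.0078 to 0.38 over the 6 settings tried).

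Krt6a in perfusate read -0.42, -1.18, -0.27, -0.98 and -0.38 in IL-13 Stat6-/-, -0.82, -0.74, -0.24, -0.73 and -0.46 in PBS and -0.10, -0.34, 0.11, -0.036 and -0.37 in Epi+. It read -0.40, -0.89, 1.98, 0.80 and 1.38 in Stat6+/-, so that arrays 6, 7 and 8 stood above every array of the other 4 groups and arrays 4 and 5 did not. Stat6+/- exceeded Stat6-/- by 1.22 ± 0.33 (adjusted p = 0.0486) and PBS by 1.17 ± 0.33 (adjusted p = 0.0363). The calls were kept in 2 of 10 and 3 of 10 omissions of 1 array, and the first was lost without the arrays that stood apart (1.13, adjusted p = 0.37, and 0.0323 to 0.37 over the 6 settings tried). With the values as deposited both were lost (adjusted p = 0.117 and 0.151, the second 0.015 to 0.188 over the 5 settings tried). A close paralog such as Krt6b may share the signal of the Krt6a spot.

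Krt7, a keratin of simple and ductal epithelia, read -0.055, -0.45, 0.32, -0.49 and 0.14 in perfusate PBS and 0.38, -0.41, 1.83, 0.95 and 1.63 in Stat6+/-, with arrays 6, 7 and 8 again the high ones. It read 0.57, 0.082, 1.35, 0.41 and 0.93 in Epi+ and 0.47, 0.54, 0.67, -0.58 and 0.76 in Stat6-/-. Stat6+/- exceeded PBS by 0.98 ± 0.21 (adjusted p = 0.00831) and did so within all 5 preparations, by 0.036 to 1.51. The difference of 0.77 ± 0.21 for Epi+ missed the threshold (adjusted p = 0.0538), and Stat6+/- differed from Stat6-/- by 0.51 ± 0.21 (adjusted p = 0.29). The call against PBS held in all 10 omissions of 1 array and was lost with the values as deposited (0.90, adjusted p = 0.135, and 0.00551 to 0.174 over the 5 settings tried). The reference preparation carried 75.0% of the within-group sum of squares of Krt7, and the arrays of Ref 1.2 were the lowest of 4 of the 5 groups. In whole lung Krt7 was 0.58, 0.43, 0.30, 0.61 and 0.57 in PBS and -0.74, -0.39, 0.12, -0.24 and -0.49 in OVA, without overlap. OVA minus PBS was -0.85 ± 0.22 and missed the threshold (adjusted p = 0.08).

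The same perfusate Stat6+/- arrays were high for other keratins. Arrays 6, 7 and 8 all exceeded arrays 4 and 5 in 14 of 37 keratins (37.8%) and in 12.2% of 15479 features with 5 values, and all lay below them in 2 keratins (5.41%) and 8.61% of features. This order was taken from the Krt6a and Krt7 values above, and both genes are counted here, so the share is descriptive only. The 14 were Krt4, Krt5, Krt6a, Krt7, Krt8, Krt13, Krt14, Krt15, Krt17, Krt19, Krt23, Krt31, Krt35 and Krt80, whereas the called Krt79 and Krt86 did not follow this order. Krt13, a keratin of upper layers of stratified epithelium, read -2.69, -2.36, 0.83, -0.24 and 0.28 there. Its difference from Stat6-/- of 1.27 ± 0.47 was not called (adjusted p = 0.194). Its partner Krt4 went the other way, by -1.03 ± 0.44 (adjusted p = 0.306). The mean level of 6 epithelial markers (Epcam, Krt8, Krt18, Krt19, Cdh1 and Cldn7, of which 5 are members) ranged from -0.41 to 0.63 over the Stat6+/- arrays and from -0.55 to 0.13 over the Stat6-/- arrays. The part of epithelial RNA content in these keratin values was not tested.

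Krt86, a type II keratin best known from hair, was called against PBS in the Stat6+/- and Epi+ groups. It read -0.39, -0.13, -0.71, 0.94 and -0.48 in PBS, 0.96, 1.02, -0.028, 1.07 and 0.49 in Stat6+/- and 1.31, 1.13, -0.25, 1.36 and -0.057 in Epi+. The ranges overlapped, since PBS array 25 was high and the array of Ref 1.4 was the lowest of each of these groups. Stat6+/- and Epi+ both exceeded PBS within all 5 preparations. The differences were 0.86 ± 0.23 (adjusted p = 0.0286) and 0.85 ± 0.23 (adjusted p = 0.0493), and that of Stat6-/- from PBS was 0.69 ± 0.23 (adjusted p = 0.14). The reference preparation carried 72.8% of the within-group sum of squares of this gene. The calls were kept in 4 of 10 and 1 of 10 omissions, and both were lost with the values as deposited (adjusted p = 0.0934 and 0.189, with 0.00797 to 0.283 over the 5 settings tried and 0.035 to 0.386 over the 5 settings tried).

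The keratin pair of simple epithelium gave differences in whole lung that did not pass the threshold. Between IL-13 Stat6+/- and Stat6-/- there, 6 of 33 keratins (18.2%) had an unadjusted p under 0.05, beside 19.4% of all features. Krt8 read 0.57, 0.38, -0.034, 0.87 and 0.46 in IL-13 Stat6-/-, -0.16, 0.71, 0.59, 0.35 and -0.009 in Epi+ and 1.25, 2.68, 1.76, 1.40 and 0.72 in Stat6+/-. All Stat6+/- arrays lay above Epi+ and all but 1 above Stat6-/-. Krt18 read 0.51, 0.85, 0.60, 1.07 and 0.47 in Stat6-/-, 0.47, 0.55, 0.73, 0.56 and 1.36 in Epi+ and 1.09, 2.70, 2.13, 1.65 and 1.16 in Stat6+/-. All Stat6+/- arrays lay above Stat6-/-, the lowest only just. The differences from Stat6-/- were 1.11 ± 0.31 for Krt8 (adjusted p = 0.0601) and 1.05 ± 0.30 for Krt18 (adjusted p = 0.0647). They were 1.20 ± 0.32 and 0.97 ± 0.30 from Epi+ (adjusted p = 0.0562 and 0.0966). Krt19, another simple epithelial keratin, differed from Stat6-/- by 0.93 ± 0.34 (adjusted p = 0.15). Without the Stat6-/- arrays that stood apart the 3 differences were 1.15, 1.05 and 0.61 for Krt8, Krt18 and Krt19 (adjusted p = 0.194, 0.205 and 0.513).

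In perfusate the same Stat6+/- against Stat6-/- comparison gave 0.20 ± 0.15 for Krt8 and 0.29 ± 0.21 for Krt18, with adjusted p-values of 0.656 and 0.655. Lung OVA and PBS differed by -0.016 ± 0.47 in Krt8 and 0.023 ± 0.39 in Krt18 (adjusted p = 0.99 and 0.983). The 6 epithelial markers averaged 1.09 in lung Stat6+/- (0.54 to 1.74 over arrays), 0.44 in Stat6-/- (0.22 to 0.89) and 0.38 in Epi+ (0.08 to 0.77). In bulk RNA, more epithelial cells and more RNA of a gene per cell cannot be told apart.

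**Figure D3:**
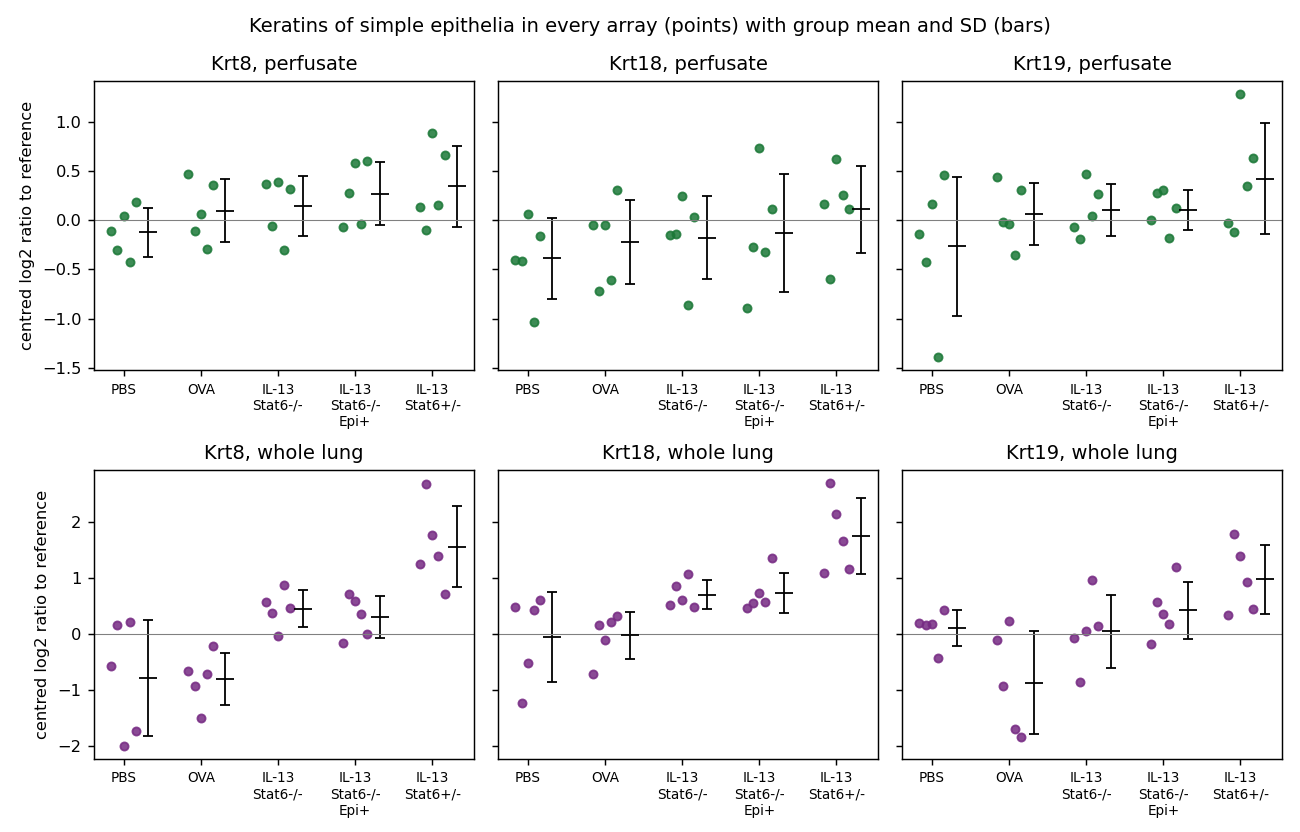
Centred log2 ratios of Krt8, Krt18 and Krt19 in every array by group in tracheal perfusate and whole lung, with the group mean and SD. In whole lung the Stat6+/- means of 1.56, 1.75 and 0.98 are the highest among the IL-13 groups, and in perfusate the 5 groups overlap. Levels of lung OVA and PBS arrays rest on another platform and reference and are not comparable with those of lung IL-13 arrays.

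Basal cell keratins gave similar estimates in lung. Krt14 differed between IL-13 Stat6+/- and Stat6-/- by 1.08 ± 0.33 (adjusted p = 0.0869) and Krt15 by 1.11 ± 0.32 (adjusted p = 0.0654), while the Krt14 partner Krt5 differed by 0.58 ± 0.36 (adjusted p = 0.416). Without the arrays that stood apart Krt14 gave 0.96 (adjusted p = 0.309) and Krt15 gave 1.41 (adjusted p = 0.0566). In perfusate the 3 differences were 0.59 ± 0.28, 0.13 ± 0.23 and 0.16 ± 0.23. Trp63, the transcription factor that maintains basal cells, differed by 1.51 ± 0.94 in lung (adjusted p = 0.423) and -0.53 ± 0.28 in perfusate (adjusted p = 0.455), and its tissue difference of -2.05 ± 0.83 was not called (adjusted p = 0.182). The epidermal pair Krt1 and Krt10 differed by -0.82 ± 0.47 and -0.39 ± 0.36 in lung (adjusted p = 0.368 and 0.612).

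Krt80, a type II keratin that lies near desmosomes, was the other member whose contrast of IL-13 Stat6+/- with IL-13 Stat6-/- differed between the tissues. In perfusate it read -1.26, -0.20, -0.55, -0.84 and -0.85 in IL-13 Stat6-/- and -0.37, -0.26, 0.65, 0.27 and 0.66 in Stat6+/-. In lung it read 0.69, 0.99, 1.41, 0.90 and 0.47 in Stat6-/- and -0.004, 0.78, 0.79, 0.070 and 0.35 in Stat6+/-. The Stat6+/- arrays were mostly high in perfusate and mostly low in lung, with overlap in each tissue. The differences were 0.93 ± 0.28 in perfusate (adjusted p = 0.0967) and -0.50 ± 0.22 in lung (adjusted p = 0.231), neither called, and they differed from each other by 1.42 ± 0.37 (adjusted p = 0.02). This call was lost without perfusate Stat6+/- array 8 (adjusted p = 0.0502) and without the 5 arrays that stood apart (1.65, adjusted p = 0.093, and 0.0121 to 0.093 over the 5 settings tried). Amplification, reference and tissue cannot be told apart in any of these tissue differences.

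Krt4 and Krt13 lay far below the whole lung references. The Krt4 mean was -8.87 ± 0.95 (SD, n = 3) in PBS and -6.72 ± 1.16 (SD, n = 5) in OVA, and the Krt13 mean -6.74 ± 0.82 (SD, n = 5) in PBS and -6.56 ± 0.81 (SD, n = 5) in OVA. In perfusate the group means were -1.28 to -0.25 for Krt4 and -2.11 to -0.83 for Krt13, against another reference. Lung OVA exceeded PBS in Krt4 by 2.15 ± 0.69, which was not called (adjusted p = 0.174). Neither gene had enough values for a test among the lung IL-13 arrays.

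Of the desmosome genes, Dsc1, a desmocollin of the upper epidermis, was the only one called, and in 1 comparison. In whole lung it read -1.91, -0.36 and -1.49 in the 3 IL-13 Stat6+/- arrays with a value and -0.12, 0.43, 1.55, 0.48 and 2.59 in Epi+. The groups did not overlap and differed by -2.46 ± 0.53 (adjusted p = 0.0338). Stat6-/- read 0, 0.13, -0.63 and -0.11 in 4 arrays and overlapped both. The call was kept in 3 of 7 omissions of 1 array and lost with the values as deposited (-2.57, adjusted p = 0.0908, and 0.0381 to 0.233 over the 5 settings tried). Omitting Epi+ array 2, 3, 4 or 6 ended it. Omitting a Stat6+/- array without a Dsc1 value left its values unchanged, and omitting one with a value left the gene untested.

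Plakoglobin (Jup) differed between lung Stat6+/- and Stat6-/- by -0.72 ± 0.26 and was not called (adjusted p = 0.143). In perfusate, 5 of the 9 desmosome genes reached an unadjusted p under 0.05 between Epi+ and PBS, as did 20.4% of all features. They were Dsc3 at -1.70 ± 0.78, Pkp2 at -0.57 ± 0.17, Pkp3 at -0.45 ± 0.21, Pkp4 at -0.38 ± 0.18 and Dsg2 at 0.40 ± 0.18, with adjusted p-values of 0.0767 to 0.237. The 2 Dsg2 spots had a correlation of 0.03 over 38 arrays. The median of the 9 genes in this comparison was -0.45, beside -0.047 over all features.

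The remaining structural members were never called. Cdh1 (E-cadherin) differed between IL-13 Stat6+/- and Stat6-/- by 0.49 ± 0.23 in perfusate (adjusted p = 0.368) and 0.16 ± 0.18 in lung (adjusted p = 0.673). Ocln gave 0.44 ± 0.23 and -0.11 ± 0.17, Tjp1 (ZO-1) gave 0.26 ± 0.45 and -0.20 ± 0.51, and Tjp3 gave 0.069 ± 0.19 and 0.51 ± 0.26 in the same comparisons. The hemidesmosome integrin Itgb4 and the epithelial integrin Itgb6 reached an unadjusted p under 0.05 in comparisons of Epi+ perfusate alone. Their differences from PBS were -0.43 ± 0.16 and -0.38 ± 0.15 there (adjusted p = 0.144 and 0.164). The Itgb6 value is a mean of 2 spots that did not move alike. The first averaged -0.816 in Epi+ and -0.023 in PBS, and the second -0.055 and -0.088.

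**Figure D4:**
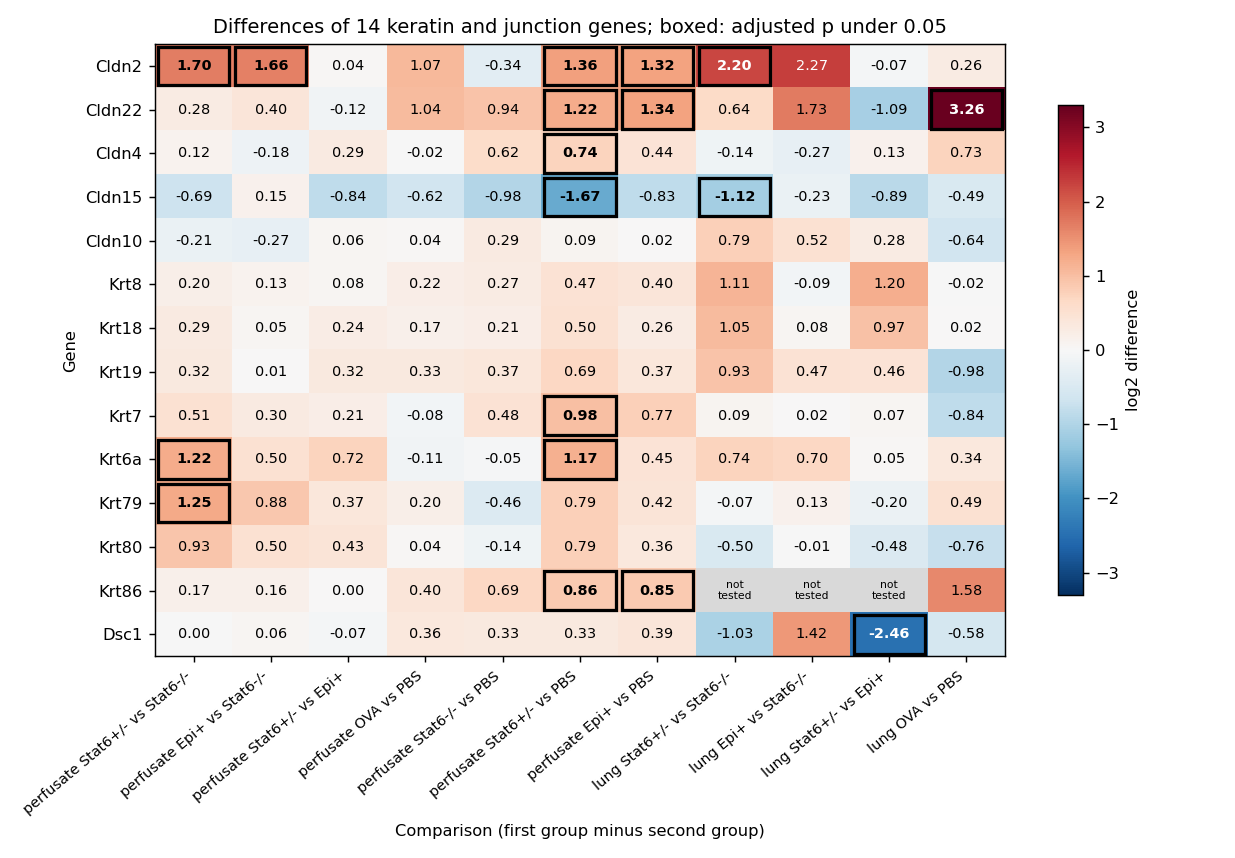
Log2 differences of 14 members (rows, shown sample by sample in the text or in the plots) in the 11 comparisons within a tissue (columns), printed in each cell and shown by colour, with a box around each called difference. Cldn2 is boxed in 5 comparisons and Cldn22 in 3, and Krt86 was not tested among the lung IL-13 groups.

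Few members were called, and their counts are read here against those of all features. In perfusate, 3 of 75 tested members rose and 0 fell in IL-13 Stat6+/- against Stat6-/-, where 1.09% of all features rose and 1.98% fell, and 13 (17.3%) had an unadjusted p under 0.05 against 12.9% of all features. Between Epi+ and Stat6-/-, 1 rose and 0 fell, with 0.152% of features called higher and 0.322% lower, and 6 were under an unadjusted 0.05 against 7.51%. Between Stat6+/- and Epi+, 0 members passed limma's test against 0.0379% of features, with 8 under an unadjusted 0.05 (6.98% of features). Between OVA and PBS, 0 passed against 0.246%, with 9 under an unadjusted 0.05 (9.2% of features). Between Stat6-/- and PBS, 0 passed against 0.619%, with 16 under an unadjusted 0.05 (19.5% of features).

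Against PBS, Stat6+/- perfusate had 6 members higher and 1 lower, beside 2.89% and 4.24% of features, and 23 members under an unadjusted 0.05 (30.7%, against 22.5%). The 37 keratins tested there had a median difference of 0.25, with 15 under an unadjusted 0.05, beside a median of -0.027 over all features. Epi+ had 3 members higher and 0 lower, beside 1.38% of features called higher and 1.63% lower, with 25 under an unadjusted 0.05 (33.3%, against 20.4%). These comparisons share their PBS arrays, and those with Stat6-/- share theirs.

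In whole lung, 1 of 70 tested members rose and 1 fell between IL-13 Stat6+/- and Stat6-/-, beside 3.3% and 1.71% of features, and 12 (17.1%) were under an unadjusted 0.05, a share near the 19.4% of all features. The median difference was -0.13 over members and -0.039 over all features. Between Epi+ and Stat6-/-, 0 passed against 0.0794% of features, with 5 under an unadjusted 0.05 (4.19% of features). Between Stat6+/- and Epi+, 0 rose and 1 fell, beside 2.46% of features called higher and 1.08% lower, with 11 under an unadjusted 0.05 (19.4% of features). Between OVA and PBS, 1 of 72 rose and 0 fell, beside 1.64% of features called higher and 0.295% lower, with 11 under an unadjusted 0.05 (16.0% of features).

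For the tissue difference of Stat6+/- against Stat6-/-, 1 of 69 members was called higher and 1 lower in perfusate relative to lung, beside 1.32% and 3.17% of features, and 9 were under an unadjusted 0.05 (17.3% of features). For Epi+ against Stat6-/-, 0 passed against 0.104%, with 5 under an unadjusted 0.05 (5.91% of features). Of the 69 genes tested in both tissues, 21 had a difference above 0 and 22 a difference below 0 in both tissues between Stat6+/- and Stat6-/-. The matching counts over all features were not made, so these are descriptive only.

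**Figure D5:**
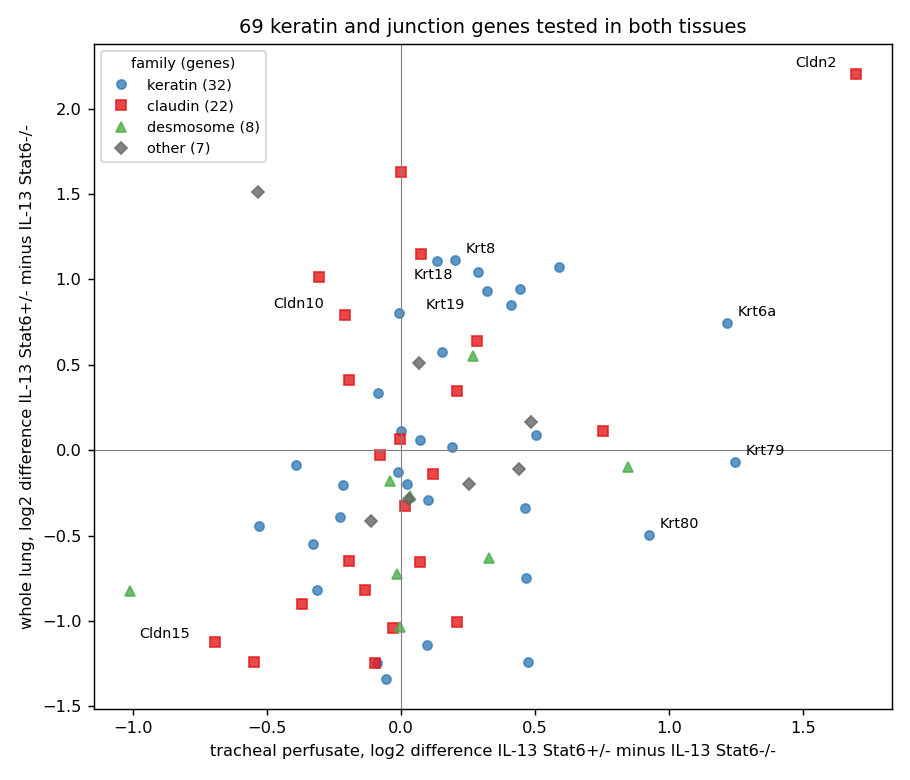
Log2 difference between IL-13 Stat6+/- and IL-13 Stat6-/- in tracheal perfusate (x axis) and whole lung (y axis) for the 69 members tested in both, marked by family. Cldn2 lies apart at the upper right, Krt79, Krt6a and Krt80 lie to the right, and Krt8, Krt18 and Krt19 lie above 0 on both axes.

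Some of the widest differences belonged to members with wide spread and were not called. The hair keratin Krt25 differed between lung Epi+ and Stat6-/- by -2.69 ± 1.02 (adjusted p = 0.983) over 3 and 4 arrays, and its tissue difference was 2.68 ± 0.81. Krt27 and Krt28, also of the hair follicle, gave -1.67 ± 0.64 and 1.02 ± 0.50 between perfusate Epi+ and Stat6-/-, and Krt28 gave -1.60 ± 0.50 between Stat6-/- and PBS (adjusted p = 0.127). Krt71 gave 0.70 ± 0.24 there (adjusted p = 0.146). Krt12, known from cornea, had standard errors near 1 or above, as in -1.16 ± 0.99 between perfusate OVA and PBS and -1.50 ± 1.50 between lung Epi+ and Stat6-/-. The hair keratin Krt33b gave -1.24 ± 0.96 between lung Stat6+/- and Stat6-/-.

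Among claudins and desmosome genes of this kind, Dsc3 differed between perfusate Epi+ and Stat6-/- by -2.04 ± 0.78 (adjusted p = 0.438) and between Stat6+/- and Stat6-/- by -1.01 ± 0.78. Cldn34d gave -0.88 ± 0.81 between Epi+ and Stat6-/-, Cldn1 gave -1.38 ± 1.02 and Cldn9 gave -0.89 ± 0.40 between perfusate OVA and PBS. Cldn23 differed between perfusate Stat6+/- and Epi+ by -0.70 ± 0.17, with an adjusted p of 0.159. In lung, Cldn16 gave -1.24 ± 0.68 and Cldn6 gave 1.63 ± 1.33 between Stat6+/- and Stat6-/-. The tissue difference was -1.32 ± 1.18 for Cldn34b2 and, for Epi+ against Stat6-/-, 1.83 ± 0.63 for Cldn16 and -1.36 ± 0.50 for Dsc1. Krt86 gave 1.58 ± 0.61 and Krt19 gave -0.98 ± 0.41 between lung OVA and PBS (adjusted p = 0.245 and 0.278).

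Members with fewer than 3 values in a group were not tested. They were Krt34 and Krt88 in perfusate, Krt4, Krt13, Krt17, Krt32, Krt86, Krt88 and Pkp1 among lung IL-13 arrays, and Krt25, Krt27, Krt28, Krt34 and Krt88 among lung OVA and PBS arrays. The pooled SD within groups had a median over members of 0.51 in perfusate, 0.79 in lung IL-13 arrays and 0.69 in lung OVA and PBS arrays. The reference preparation carried a median of 45.7% of the within-group sum of squares of 67 members with a value on every perfusate array and 42.6% over 13346 features, where its share of the degrees of freedom was 20%.

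Other genes of these structures were counted from lists of names. In perfusate of IL-13 Stat6+/- against PBS, 0 rose and 1 fell of 20 other tight junction genes tested, in a comparison where 4.24% of all features fell, namely Cgn (cingulin) at -0.66 ± 0.18 (adjusted p = 0.0353). Of 11 other desmosome and hemidesmosome genes, 0 rose and 3 fell there, which were the envoplakin gene Evpl at -1.60 ± 0.34, the integrin chain Itga3 at -0.85 ± 0.23 and the plakin Dst at -0.70 ± 0.17 (adjusted p = 0.00674, 0.0293 and 0.0156). Of these 11, 2 fell in Epi+ against PBS (1.63% of all features), Evpl at -1.28 ± 0.34 and the hemidesmosome collagen Col17a1 at -0.92 ± 0.19 (adjusted p = 0.046 and 0.0141). None of the other adherens junction genes was called in any of the 13 comparisons.

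Of 14 epithelial transcription factors tested, 3 rose and 0 fell in perfusate IL-13 Stat6+/- against Stat6-/-, beside 1.09% of all features called higher. The list's median was -0.32, below 0 and below the -0.017 of all features, and 8 of the 14 had an unadjusted p under 0.05. The 3 that rose were Elf3 at 0.87 ± 0.19, Klf4 at 1.20 ± 0.30 and Spdef, which directs goblet cell differentiation, at 1.05 ± 0.23 (adjusted p = 0.0138, 0.0331 and 0.0111). Of 6 squamous envelope genes, Sfn alone rose there, by 0.97 ± 0.25 (adjusted p = 0.0413). It rose by 1.55 ± 0.25 against PBS (adjusted p = 0.000876), where 2.89% of all features rose. Without the 3 Stat6-/- arrays that stood apart, Elf3, Klf4, Spdef and Sfn differed from Stat6-/- by 0.75, 1.45, 1.19 and 0.71 and were not called (adjusted p = 0.155, 0.149, 0.112 and 0.486). Of 6 repressors of junction genes, Zeb1 alone was called between lung Stat6+/- and Stat6-/-, at -0.72 ± 0.19 (adjusted p = 0.0454), where 1.71% of all features fell. It was -0.75 without the 2 lung arrays that stood apart (adjusted p = 0.085). The lists held further calls. In lung Stat6+/- against Epi+, 1 of 11 other desmosome and hemidesmosome genes and 1 of 6 repressors fell (1.08% of all features). There 1 of 6 squamous envelope genes rose (2.46%). Of the transcription factors, 1 of 14 rose in perfusate Stat6+/- against PBS (2.89%). In the tissue difference of Stat6+/- against Stat6-/-, 1 of 13 was lower (3.17%).

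Markers of other cells moved with several of these comparisons, and their part in the members' values was not tested. The shares of all features called in these comparisons are given above. All 3 goblet cell markers (Clca1, Muc5ac and Spdef) rose in perfusate IL-13 Stat6+/- against Stat6-/-, the comparison in which Cldn2, Krt79 and Krt6a rose, and their mean level ran from 0.96 to 2.34 over Stat6+/- arrays and from -1.29 to -0.75 over Stat6-/- arrays. In Epi+ against Stat6-/-, where Cldn2 was also called, 2 of the 3 rose, with mean levels of 0.76 to 1.94 over Epi+ arrays. Against PBS in perfusate, 3 rose in Stat6+/- and 2 in Epi+, where Cldn2 was called. In perfusate OVA 2 of the 3 rose too, where no member was called. In lung, 2 of 2 tested rose in Stat6+/- against Stat6-/-, where Cldn2 was called. Cldn2 was not called in lung Epi+ against Stat6-/- or OVA against PBS, where 1 of 2 and 2 of 3 rose. Of 5 ciliated cell markers, 1 rose and 4 had an unadjusted p under 0.05 in perfusate Stat6+/- against Stat6-/-, with mean levels of 0.22 to 0.72 and -0.40 to 0.12. In lung IL-13 Stat6+/- against Stat6-/-, 5 of 8 leukocyte markers tested rose and 0 fell, and their mean level ran from 0.40 to 1.36 over Stat6+/- arrays and from -0.79 to -0.32 over Stat6-/- arrays. There 3 of 7 endothelial markers fell, with mean levels of -1.11 to -0.31 in Stat6+/- and -0.38 to 0.18 in Stat6-/-. The 6 cardiac muscle markers averaged -1.14 to -0.21 over Stat6+/- arrays and -0.38 to 0.90 over Stat6-/- arrays. In lung OVA against PBS, 4 of 8 leukocyte markers rose, with mean levels of 1.11 to 1.99 over OVA arrays and -0.33 to 0.56 over PBS arrays. Of 7 endothelial markers, Cldn5 among them, 0 were called there by limma's test and 6 had an unadjusted p under 0.05, with mean levels of -1.44 to -0.87 over OVA arrays and -0.45 to -0.06 over PBS arrays. Of 6 alveolar type 1 markers, Cldn18 among them, 0 were called and 5 had an unadjusted p under 0.05, with mean levels of -1.35 to -0.39 and -0.27 to 0.081. In perfusate IL-13 Stat6+/- against PBS, where Cldn15 fell, 3 of 8 markers of stroma and cartilage fell (Col1a1, Col1a2 and Dcn), with mean levels of -0.54 to -0.18 over Stat6+/- arrays and -0.12 to 0.33 over PBS arrays. A ratio to a reference gives no absolute level, so whether a marker was near 0 in a tissue could not be read.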

How the data were processed

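The authors deposited 1 log2 ratio per spot of each two-channel array, and the labels name a reference as the first channel and the sample as the second. Background correction, normalization and direction of the ratio are not stated in the labels or headers. No intensities were used, so signal over background and dye bias could not be examined, and depth is set by the number of arrays.

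Each array was centred on its median. Spots with 1 gene symbol (updated through Entrez identifiers to RefSeq GRCm38.p6) were averaged by gene, giving 17143 features on the larger platform of 19152 spots and 16892 on the smaller one of 18240, where 15418 and 14857 spots had 1 symbol, 7 and 6 several, and 3727 and 3377 were unlisted. Linear models were fitted across all features with at least 3 values in every group, with variances moderated by limma 3.58.1 in R 4.3.3, the reference preparation or pool as a block, and Benjamini-Hochberg adjustment. Perfusate fits held 25 arrays, lung IL-13 fits 15, lung OVA and PBS fits 10, and the tissue difference was an interaction over 40 arrays. Any member could be named, and those called in a comparison or among the 3 widest differences in a direction are given, as is Krt18 beside its partner Krt8. The members, lists and alternatives were chosen with earlier results of these data known. In simulated data, 48%, 18% and 6% of features changed by a log2 difference of 1 were recovered for perfusate Stat6+/- against Stat6-/-, the same comparison in lung, and lung OVA against PBS, and 88%, 58% and 43% of those changed by 2 (100 each, of 15831, 15116 and 15953 features). Alternatives were the deposited values without centring, quantile normalization, a value on every array, no reference block, fits of only the 2 groups, a replicate block in lung, omission of each array, and omission of the Stat6-/- arrays set apart by sex-linked genes, known from earlier work on these data.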

Additional observations from a re-analysis of the deposited data

Results flagged for a closer look

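Of 137 values of the genes shown sample by sample in a group, 12 had 1 array far from the other arrays by Dixon's test, which chance does in about 1 in 20 groups. In perfusate, Cldn2 was 0.356 in OVA array 29 (the others 1.21 to 1.38), and Cldn22 was 1.523 in OVA array 30 (the others 0.90 to 1.02). Krt7 was -0.584 in IL-13 Stat6-/- array 13 (the others 0.47 to 0.76). Krt79 was 1.166 in PBS array 25 (the others 0.43 to 0.50) and 1.015 in IL-13 Stat6-/- array 14 (the others -0.28 to 0.067).

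In whole lung, 3 of these values came from IL-13 Stat6-/- array 5, in which Cldn22 was -4.25 (the others -0.49 to 0.44), Cldn4 was -1.581 (the others 0.15 to 0.67) and Krt7 was 0.696 (the others 0.013 to 0.19). Krt6a was -3.138 in IL-13 Stat6-/- array 2 (the others -0.25 to 0.43). OVA array 6 held a low Cldn10 of -2.135 (the others -0.36 to 0.022) and a low Krt6a of -0.075 (the others 0.62 to 0.90). Dsc1 was 3.171 in PBS array 3 (the others -2.39 to -1.09).

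The difference between IL-13 Stat6+/- and IL-13 Stat6-/- was not the same in the tissues for Cldn10 and Krt80 in the test of the interaction. Perfusate minus lung gave -0.998 for Cldn10 and 1.424 for Krt80. Both calls were lost without the Stat6-/- arrays that stood apart. Amplification, reference and tissue cannot be told apart here.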

How the results depend on the processing

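No called difference changed sign under any alternative run. Of the member counts under alternatives, 162 stayed within 1.5 times their main value and 60 did not, and the cause was not tested. The 162 include counts of 0 in comparisons whose main count was 0, so they do not measure how stable the comparisons with calls were. Values here are members called. In perfusate Stat6+/- against Stat6-/- (3), fits of the 2 groups and omission of the arrays set apart each gave 1. Epi+ against Stat6-/- (1) gave 0 under both and with a value required on every array, where Cldn2 is not tested. OVA against PBS (0) and Stat6-/- against PBS (0) each gave 1 with a value required on every array. Stat6+/- against PBS (7) gave 2 as deposited, 12 with quantile normalization, 2 without the reference block and 0 in fits of the 2 groups. Epi+ against PBS (3) gave 1, 1 and 0 as deposited, without the block and in fits of the 2 groups. In lung Stat6+/- against Stat6-/- (2), quantile normalization gave 4, a value on every array 6, fits of the 2 groups 1, and the deposited values, no block and omission of the arrays set apart 0. Lung Stat6+/- against Epi+ (1) gave 0 as deposited, without the block and in fits of the 2 groups, and lung OVA against PBS (1) gave 0 as deposited and with a value on every array. The tissue difference for Stat6+/- (2) gave 1 with quantile normalization, 1 without the block and 0 without the arrays set apart. Replicate numbers were not taken to pair the lung samples. Same-numbered pairs correlated at -0.577 to 0.402 among 12 IL-13 pairs and -0.176 to 0.007 among 4 OVA and PBS pairs. The IL-13 pairs mix shared and different reference pools, which were not removed, so their range cannot settle whether the numbers pair samples. With the replicate block the 3 lung comparisons with calls gave 0. Perfusate numbers are not shared between groups.

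Omitting 1 array at a time gave 2 to 4 members for perfusate Stat6+/- against Stat6-/-, 1 to 1 for Epi+ against Stat6-/-, 0 to 3 for Stat6-/- against PBS (3 without Stat6-/- array 12, 1 without PBS array 25), 3 to 8 for Stat6+/- against PBS (3 without Stat6+/- array 6, and 4 without Stat6+/- array 7 or 8 or PBS array 23, 24 or 26) and 2 to 5 for Epi+ against PBS (5 without PBS array 25). In lung it gave 0 to 6 for Stat6+/- against Stat6-/- (6 without Stat6+/- array 1, 1 without Stat6+/- array 3 or Stat6-/- array 1 or 2, and 0 without Stat6+/- array 4 or Stat6-/- array 4 or 6), 0 to 3 for Stat6+/- against Epi+ (3 without Stat6+/- array 1, and 0 without Stat6+/- array 5 or Epi+ array 3, 4 or 6) and 1 to 1 for OVA against PBS. The tissue difference gave 0 to 5 (5 and 4 without lung Stat6+/- array 5 and 6, 0 without perfusate Stat6+/- array 8, and 1 without perfusate Stat6+/- array 4 or 6, perfusate Stat6-/- array 10 or 13 or lung Stat6-/- array 5). The other 4 comparisons gave 0 to 0. Centring removed shifts between group medians of 0.122 (perfusate Stat6+/- minus Stat6-/-), -0.204 (Stat6-/- minus PBS) and -0.18 (Epi+ minus PBS), and in lung of -0.37 (Stat6+/- minus Stat6-/-), -0.161 (Epi+ minus Stat6-/-), -0.209 (Stat6+/- minus Epi+) and -0.166 (OVA minus PBS).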
